A study of Mus musculus with 9 samples.

Results

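S2 is the cluster of mouse spinal cord nuclei that carries the label of alpha motor neurons (MNs) among the skeletal MNs. Its members were taken from the cluster label deposited for each nucleus. They number 1285 of 16042 cholinergic nuclei (8.01%), and 25.4% of the 5054 skeletal MN nuclei, the rest of which fall into the clusters S1 (1528 nuclei) and S3 (2241 nuclei). A second label, the skeletal type, calls 1283 of the S2 nuclei alpha, and 1 nucleus with that type lies outside S2. Nuclei were sorted by green fluorescent protein (GFP) from 12 mice aged 8 weeks of the genotype Chat-iCre:+/wt and SUN-SfGFP:+/wt, in which Cre made by cells that use or have used the choline acetyltransferase gene switches on a GFP-tagged protein of the nuclear envelope. All libraries share this genotype, no treatment was given, and no strain without the reporter was included. The mice were pooled 4 by 4, with replicate 1 holding 2 males and 2 females, replicate 2 males and replicate 3 females, and the cord of each pool was cut into a cervical, a thoracic and a lumbar/sacral piece, which makes 9 libraries. The 3 libraries of a replicate come from the same mice, and sex cannot be told apart from pool. The question addressed here is which genes set S2 apart from the other 20 cholinergic clusters, and whether its profile or its share differs along the cord.

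Alpha MNs are the large neurons of the ventral horn that contact the force-producing fibers of skeletal muscle and so form the last step of the motor command. They are distinguished from gamma MNs, which adjust the sensitivity of muscle spindles, and from visceral MNs, which contact autonomic ganglia. Alpha MNs divide further into types that serve fast and slow muscle fibers, which differ in excitability and in their sensitivity to motor neuron disease.

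The values are counts corrected by a model, which removes most of the spread in depth within a library. They were summed over the S2 nuclei of each library, scaled to a total of 1000000, and are given as CPM, corrected counts per 1000000. Levels are not corrected for gene length, so they are compared between groups of nuclei and not between genes. The number of S2 nuclei per library was 395, 71 and 163 in cervical replicates 1 to 3, 92, 79 and 26 in thoracic replicates 1 to 3, and 159, 58 and 242 in lumbar/sacral replicates 1 to 3. The median total per S2 nucleus ran from 4998 to 14251 corrected counts. The S2 sum of a library held between 227255 corrected counts, in thoracic replicate 3, and 2886974, in cervical replicate 1. Among the cholinergic nuclei 66 had a barcode that also occurs in another library, 10 of them in S2.

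A pair of libraries of the male pool went against their region labels, and 1 of them also stood apart in its S2 nuclei. Over all cholinergic nuclei, *Hoxc5*, which marks a position along the cord, was at 25.4 and 22.5 CPM in cervical replicates 1 and 3 and at 85.3 and 84.2 CPM in thoracic replicates 1 and 3. It was at 73.3 CPM in the library labelled cervical replicate 2 and at 13.9 CPM in the library labelled thoracic replicate 2. *Hoxa9* was at 0.412 and 0.213 CPM in cervical replicates 1 and 3, at 9.35 and 9.04 CPM in thoracic replicates 1 and 3, at 9.68 CPM in the library labelled cervical replicate 2 and at 0.507 CPM in the library labelled thoracic replicate 2. Both genes thus placed each of these libraries with the other region, and directions between cervical and thoracic tissue rest on labels that these genes contradict. *Hoxa7* did so only for the library labelled cervical replicate 2, at 14.7 CPM. It was at 6.33 and 5.46 CPM in cervical replicates 1 and 3 and at 10.1 and 15.9 CPM in thoracic replicates 1 and 3. In the library labelled thoracic replicate 2 it was at 11.9 CPM, as its label has it. *Hoxc4* was at 34.8 CPM there, below its level in every other library. In the library labelled cervical replicate 2 the S2 nuclei themselves also differed from S2 elsewhere. *Zeb2*, a gene of visceral MNs, was above 0 in 93.0% of its 71 S2 nuclei, against 0 to 5.17% in the other libraries and 3.16% of the S1 and S3 nuclei of the same library, and its value was exactly 1 in 49 nuclei. *Tns1*, a gene of skeletal MNs, was above 0 in 26.8% of them, against 83.6 to 97.8% in the other libraries. Their median total was 14251 corrected counts, against 16229 in S1 and 16190 in S3 of that library. The visceral cluster V10 of that library was as low, at 14521.5. The counts of genes below are therefore given with and without this library, and levels in it are named where they differ from the rest of S2.

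*Sv2b*, *Stk32a* and *Mrvi1*, of the 4 markers given for S2, were highest in S2 of the 21 clusters, whereas the fourth, *Rbfox3*, was not. *Sv2b*, which encodes a glycoprotein of synaptic vesicles, ran from 172 CPM in lumbar/sacral replicate 2 through a median of 326 to 422 CPM in cervical replicate 1. Its mean was 14.9 CPM in S1, 7.98 CPM in S3 and 197 CPM in I6, the next highest cluster. *Stk32a*, which encodes a serine/threonine kinase, ran from 101 CPM in the library labelled cervical replicate 2 through a median of 392 to 545 CPM in thoracic replicate 1, and the next highest cluster was V8 at 187 CPM. The S2 level of *Stk32a* lay below the mean of V8 in the library labelled cervical replicate 2. It also did so in the lowest of the other 8 libraries, at 172 CPM. Likewise, *Sv2b* in lumbar/sacral replicate 2 lay below the mean of I6. *Mrvi1*, whose product is a target of cyclic GMP-dependent kinase, ran from 37.3 CPM in the library labelled cervical replicate 2 through a median of 74.8 to 131 CPM in thoracic replicate 1. Its highest mean elsewhere was 3.63 CPM, in I7, so no library of S2 came near another cluster. *Rbfox3*, which encodes the splicing factor NeuN, ran from 107 CPM in lumbar/sacral replicate 2 through a median of 226 to 333 CPM in cervical replicate 1 and ranked eighth of the clusters. It was higher than in S1 (35.8 CPM) and S3 (64.3 CPM) but lower than in I7, at 576 CPM. It was higher than in S1 by a log2 difference of at least 1 in all 8 libraries without the library labelled cervical replicate 2, but not higher than in S3 in all 8. In lumbar/sacral replicate 2 it was above 0 in 39.7% of S2 and 38.7% of S3 nuclei.

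**Figure D1:**
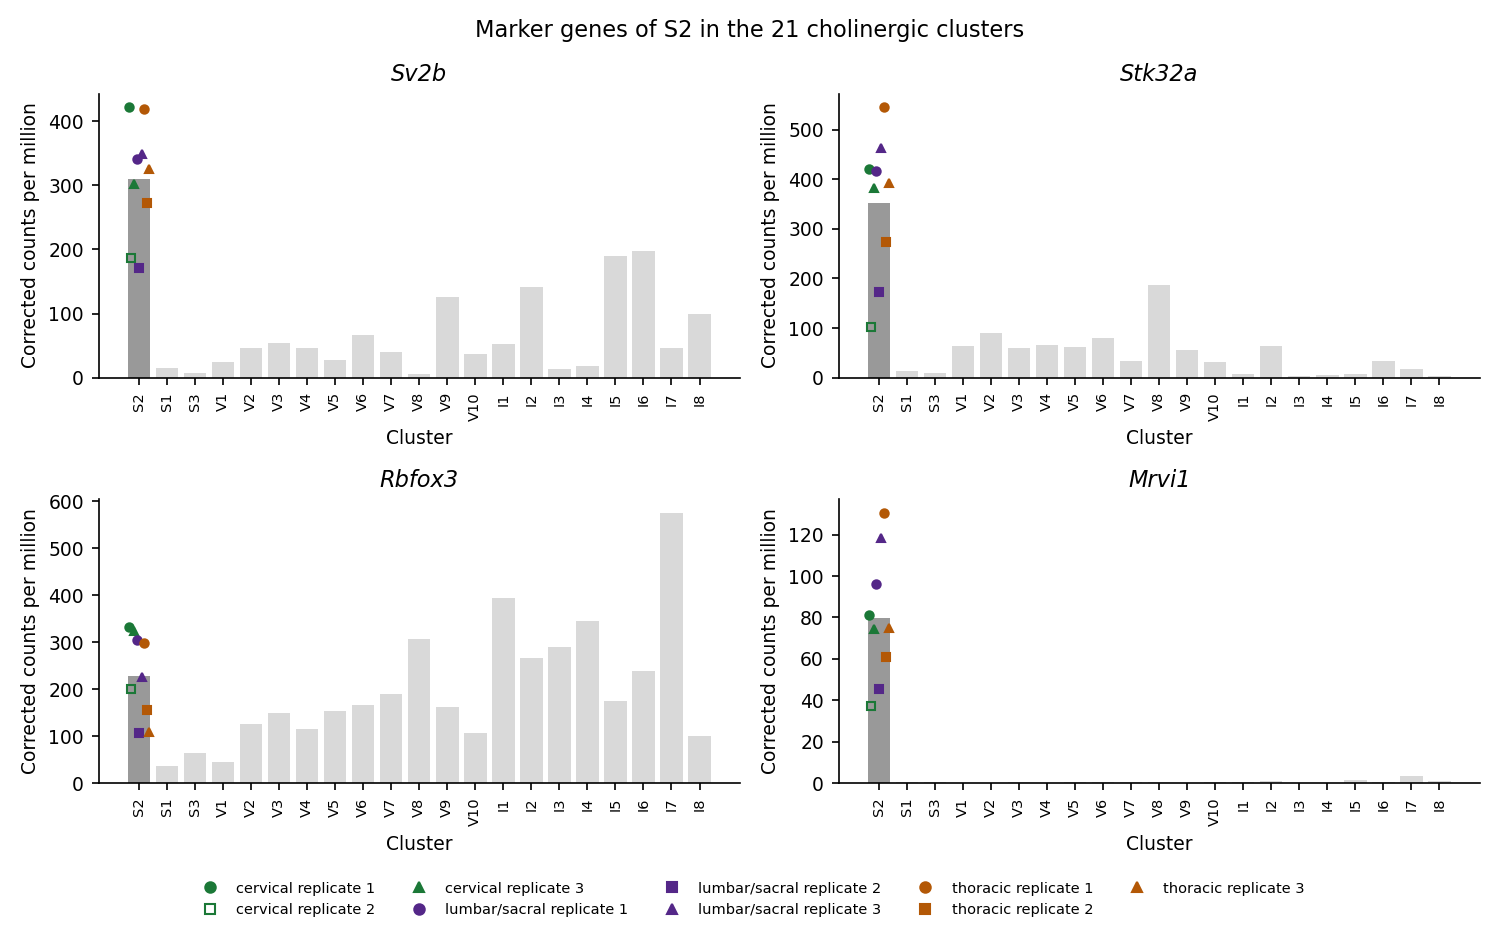
Level of the 4 marker genes in CPM (vertical axes, each from 0) in the 21 cholinergic clusters (horizontal axes); bars are means over libraries with at least 10 nuclei, and symbols over S2 are its 9 libraries by label, the open square being the library labelled cervical replicate 2. Mrvi1 is near 0 outside S2, Sv2b and Stk32a are highest in S2, and Rbfox3 is higher in several interneuron clusters than in S2.

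Counted per nucleus, *Sv2b* was above 0 in 88.1% of S2 nuclei, *Stk32a* in 85.7%, *Rbfox3* in 77.3% and *Mrvi1* in 45.2%. In S1, which has similar totals per nucleus, the shares were 8.44, 6.61, 23.2 and 0.327% in the same order. In S3 they were 5.85, 6.11, 37.5 and 0.357%. At least 3 of the 4 markers were above 0 in 72.9% of S2 nuclei, in 0.458% of S1, 0.134% of S3 and 3.84% of all other cholinergic nuclei. Between libraries this share in S2 ran from 22.4% in lumbar/sacral replicate 2 and 36.6% in the library labelled cervical replicate 2 to 94.6% in thoracic replicate 1. In lumbar/sacral replicate 2, of 58 S2 nuclei, 9 had 0 and 20 had 1 of the 4 markers above 0. *Gpr149*, a marker of S1, was at 229 CPM in S2 there, against 29.6 to 143 CPM in S2 of the other libraries. Lumbar/sacral replicate 2 was kept in all counts over 8 libraries. These genes are among those from which clusters are drawn, so the differences are descriptions without a test.

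Against the sum of all other cholinergic nuclei of the same library, 76 of 11208 genes were higher in S2 by a log2 difference of at least 1 in each of the 9 libraries (0.678%), and 113 were lower by as much (1.01%). Without the library labelled cervical replicate 2 the counts were 170 (1.52%) and 221 (1.97%). The clusters were drawn from the expression of the same nuclei, so these differences carry no test. The median difference over all genes was -0.04, and 0.04 without that library. When each of the other 20 clusters was given equal weight, the counts were 185 higher and 39 lower, so the balance between higher and lower genes depends on how the rest is averaged. The text names, among the genes higher in all 9 libraries and highest in S2 of all clusters, the 15 with the largest difference, and among those lower in all 9 the 10 with the largest negative difference. Without the library labelled cervical replicate 2 the differences of these 15 ran from 2.71 for *L3mbtl4* to 4.07 for *Glis3*, and those of the 10 from -4.49 for *Nos1* to -3.33 for *Piezo2*. The same rule over the 8 libraries brought in *Gm14697* (3.28 ± 0.66), *Gm26673* (3.01 ± 1.13) and *Gm7694* (2.90 ± 0.69) among the higher genes. Among the lower genes it brought in *Grm5*, a metabotropic glutamate receptor and then the lowest of all at -4.58 ± 1.62, *Plppr1* (-4.09 ± 0.76), *Col8a1* (-4.08 ± 0.73), *Ebf2* (-3.96 ± 0.45) and *Dcx* (-3.84 ± 0.42).

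The leading genes of S2 include an enzyme, a transcription factor and a peptide receptor. *Aox1*, which encodes an aldehyde oxidase, had the largest difference at 3.92 ± 0.54 (mean log2 difference ± SD, n = 9 libraries), while without the library labelled cervical replicate 2 it was 4.05 ± 0.41 and that of *Glis3*, at 4.07 ± 0.76, was larger. It ran from 47.1 CPM in the library labelled cervical replicate 2 through a median of 129 to 227 CPM in lumbar/sacral replicate 3 in S2, against a mean of 4.17 CPM in the other nuclei. *Glis3*, which encodes a zinc finger transcription factor, ran from 12.8 CPM in the library labelled cervical replicate 2 through a median of 136 to 315 CPM in lumbar/sacral replicate 1, with a mean of 3.06 CPM in the rest and a difference of 3.77 ± 1.14. Leaving out the library labelled cervical replicate 2, its range in S2 was 49.0 to 315 CPM. *Vipr2*, which encodes a receptor for vasoactive intestinal peptide and PACAP, ran from 27.5 CPM in the library labelled cervical replicate 2 through a median of 97.3 to 144 CPM in cervical replicate 3, against 3.95 CPM in the rest. In each of these genes the lowest library was the one labelled cervical replicate 2, and even there S2 was above the rest of its library.

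The promoters of these 3 genes are shown because they are among the genes that most set S2 apart and have 1 start each in the RefSeq table (build GRCm38.p6). Each is the 250 bases before the start, read 5′ to 3′ on the strand of the gene, and capitals mark GGGCGG or its reverse complement, the core of the GC box. This motif occurs on either strand in 32.7% of the 32851 promoters of the table, and in 5 of 9 named S2 genes with 1 start. Genes of 1 chromosome were left out of this count, so the 9 need not be all such genes.
Aox1 (chr1:58029719-58029968, plus strand): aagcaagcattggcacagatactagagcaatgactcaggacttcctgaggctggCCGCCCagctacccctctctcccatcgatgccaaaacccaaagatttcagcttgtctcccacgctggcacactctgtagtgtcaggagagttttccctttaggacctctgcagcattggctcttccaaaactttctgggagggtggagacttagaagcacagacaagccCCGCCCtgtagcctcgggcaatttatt
Glis3 (chr19:28680078-28680327, minus strand): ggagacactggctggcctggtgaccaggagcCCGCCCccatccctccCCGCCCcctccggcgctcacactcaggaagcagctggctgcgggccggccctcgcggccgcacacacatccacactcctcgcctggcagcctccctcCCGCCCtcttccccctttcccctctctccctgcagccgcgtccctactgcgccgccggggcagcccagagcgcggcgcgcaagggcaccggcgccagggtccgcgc
Vipr2 (chr12:116077476-116077725, plus strand): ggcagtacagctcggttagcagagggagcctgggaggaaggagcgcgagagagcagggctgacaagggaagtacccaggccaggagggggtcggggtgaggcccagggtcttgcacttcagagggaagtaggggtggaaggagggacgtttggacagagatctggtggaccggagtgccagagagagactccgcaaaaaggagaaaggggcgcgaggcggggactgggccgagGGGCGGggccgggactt
The motif matched 2 times before *Aox1*, 3 times before *Glis3* and 1 time before *Vipr2*, which describes these letters and no binding.

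Further genes of this group encode secreted factors, receptors and channel subunits. *Pdgfd*, a growth factor of the platelet-derived family, ran from 183 CPM in the library labelled cervical replicate 2 through a median of 560.2 to 831 CPM in thoracic replicate 1, against 53.2 CPM in the rest and 394 CPM in S1, its next highest cluster. *Ghr*, the growth hormone receptor, ran from 237 CPM in the library labelled cervical replicate 2 through a median of 557 to 779.9 CPM in thoracic replicate 1, and its mean was 76.0 CPM in the rest. *P2rx6*, a subunit of ATP-gated channels, ran from 16.7 CPM in the library labelled cervical replicate 2 through a median of 57.8 to 75.3 CPM in thoracic replicate 1, against 3.66 CPM. For these genes S2 was above the mean of the rest in every library. *Kcnmb4*, an auxiliary subunit of large-conductance calcium-activated potassium channels, ran from 44.2 CPM in the library labelled cervical replicate 2 through a median of 93.0 to 126 CPM in the library labelled thoracic replicate 2, with 10.4 CPM in the rest and a difference of 2.64 ± 0.51. *Grid2ip*, which encodes a scaffold of glutamate receptor delta-2, differed by 2.87 ± 0.60, and *Ntng2*, which encodes the adhesion molecule netrin-G2, by 2.68 ± 0.71. *Tapt1*, a transmembrane protein gene, was at a median of 431 CPM in S2 and a mean of 43.4 CPM in the rest. *L3mbtl4*, whose product belongs to a family of chromatin readers, differed by 2.59 ± 0.56, but its mean in S1 was 221 CPM beside 223 CPM in S2. The predicted genes *Gm10754* and *Gm42982* differed by 3.32 ± 0.73 and 3.14 ± 0.92.

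Genes that were lowest against the rest include several used by visceral MNs and interneurons. *Nos1*, the neuronal nitric oxide synthase, had a difference of -4.23 ± 1.04 and ran from 0 CPM in thoracic replicate 3 through a median of 6.57 to 52.0 CPM in the library labelled cervical replicate 2, against 243 CPM in the rest. *Fbn2*, which encodes fibrillin-2, ran from 0 CPM in thoracic replicate 3 through a median of 6.23 to 71.6 CPM in the library labelled cervical replicate 2, against 239 CPM. Both were also low in the other skeletal MNs, *Nos1* at 7.01 and 8.20 CPM in S1 and S3, and *Fbn2* at 22.4 and 22.3 CPM. *Stac*, whose product binds voltage-gated calcium channels, had a range in S2 of 0 to 31.0 CPM in 8 libraries and 169.8 CPM in the library labelled cervical replicate 2, against 264 CPM in the rest. It differed from the other skeletal MNs as well, at 79.9 CPM in S1 and 272 CPM in S3. *Piezo2*, a channel opened by mechanical force, ran from 0 in 2 libraries through a median of 13.2 to 33.2 CPM in cervical replicate 3, against 157 CPM. *Klhl1*, a kelch protein that binds actin, differed by -3.76 ± 0.92, and *Trpc4*, a cation channel, by -3.44 ± 0.81. *Pard3b*, of the cell polarity complex, differed by -3.89 ± 1.06, *Zfp804b*, a zinc finger gene, by -3.60 ± 1.31, *Nwd2* by -3.55 ± 1.12 and *Ankfn1* by -3.43 ± 0.77. These genes were low in S1 too, with means of 41.4 CPM for *Klhl1*, 3.73 for *Trpc4*, 10.7 for *Pard3b*, 37.6 for *Nwd2* and 11.8 for *Piezo2*. *Zfp804b* and *Ankfn1* were low in S1 (39.0 and 4.04 CPM) and S3 (36.2 and 6.10 CPM). In S3 *Klhl1*, *Pard3b* and *Nwd2* were at 958, 562 and 334 CPM. For all genes of this paragraph except *Piezo2* the difference was smallest in the library labelled cervical replicate 2.

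**Figure D2:**
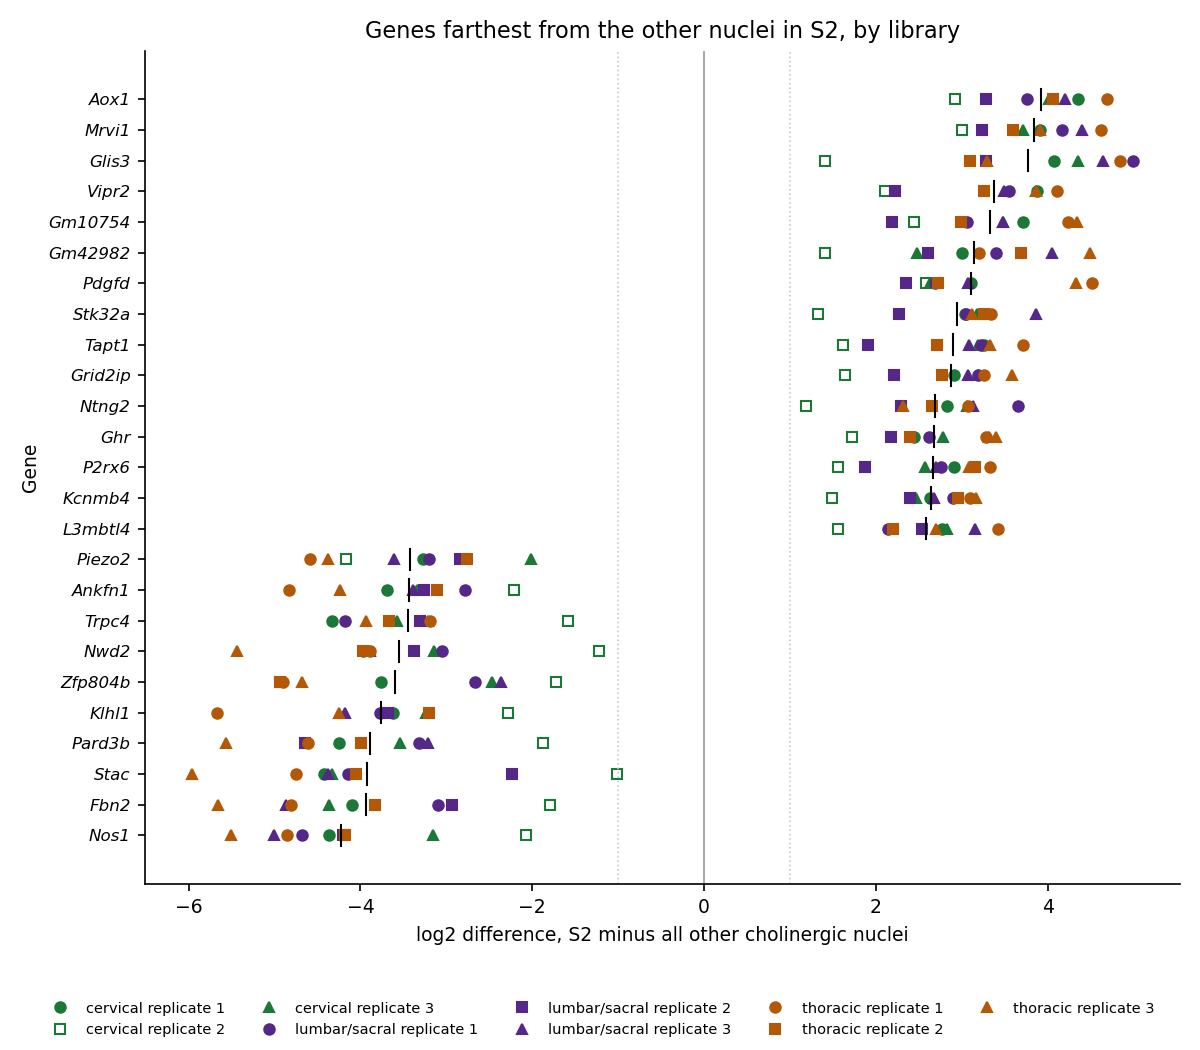
Log2 difference of S2 from all other cholinergic nuclei of the same library (horizontal axis) for the 15 genes named as higher and the 10 named as lower (vertical axis); symbols are the 9 libraries by label, short vertical bars are means, and dotted lines mark a difference of 1 either way. The open square, the library labelled cervical replicate 2, lies nearest 0 for most genes, and every symbol lies beyond the dotted lines.

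Among 37 transcription factor genes of MNs that could be compared, 4 were higher in S2 in all 9 libraries (*Glis3*, *Nfia*, *Nfib* and *Lhx4*) and 2 were lower (*Creb5* and *Ebf1*), beside 0.678% and 1.01% of all genes. Without the library labelled cervical replicate 2 there were 7 higher, with *Maf*, *Mecom* and *Bcl6* added, and 5 lower, with *Ebf2*, *Ebf3* and *Zeb2* added, beside 1.52% and 1.97% of all genes. *Nfib*, a nuclear factor I gene, ran from 142 CPM in the library labelled cervical replicate 2 through a median of 335 to 484 CPM in thoracic replicate 1, above its means of 126 CPM in S1 and 156 CPM in S3. *Nfia*, of the same family, ran from 488 CPM in the library labelled cervical replicate 2 through a median of 981 to 1189.9 CPM in thoracic replicate 1, with 656 CPM in S1 and 294 CPM in S3. *Maf*, a leucine zipper factor, had a range of 17.6 to 97.2 CPM in 8 libraries and was at 9.81 CPM in the ninth, against 3.69 and 4.46 CPM in S1 and S3. *Lhx4*, a LIM homeodomain factor of MN development, ran from 18.6 CPM in the library labelled cervical replicate 2 through a median of 48.6 to 75.3 CPM in thoracic replicate 1, the highest of the clusters. *Isl1* and *Mnx1*, which specify MNs in development, were at medians of 66.8 and 9.53 CPM in S2 and passed the rule in neither direction. *Creb5* was at a median of 219 CPM, close to S1 (209 CPM) and far from S3 (1781 CPM). *Ebf1*, an early B cell factor gene, was at a median of 86.2 CPM, against 822 CPM in the rest.

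The 3 genes of acetylcholine use that could be compared had a median log2 difference of 0.02 from the rest. *Chat*, which makes acetylcholine, ran from 144 CPM in the library labelled cervical replicate 2 through a median of 262 to 308 CPM in lumbar/sacral replicate 2, against 221 CPM in the rest. *Slc5a7*, the choline transporter, was at a median of 322 CPM in S2 and 301 CPM in the rest. Of the 3 genes of this list, 0 passed the rule in either direction, where 0.678% of all genes were higher and 1.01% lower. In so few genes a count of 0 lies near those shares. Among the skeletal MN genes, *Tns1* was at 311 to 449.6 CPM in the 8 libraries and 80.5 CPM in the library labelled cervical replicate 2, beside 400.3 CPM in S1 and 386 CPM in S3. *Spp1*, which encodes osteopontin, ran from 7.85 CPM in the library labelled cervical replicate 2 through a median of 24.6 to 37.2 CPM in thoracic replicate 1 in S2, with 2.53 and 3.64 CPM in S1 and S3. Of the 5 gamma MN markers compared, 0 passed the rule in all 9 libraries, beside the same shares of all genes. Their median log2 difference from the rest was -1.94. *Nrp2* was lower without the library labelled cervical replicate 2, as were 1.97% of all genes. *Esrrg* was at a median of 1068 CPM, against 1931 and 2056 CPM in S1 and S3, and *Htr1d*, a serotonin receptor, was at a median of 1.42 CPM, against 118 and 112 CPM. The summed level of the 6 gamma markers was 1016 to 1897 CPM in the S2 libraries and 3381 to 5045 CPM in those of S3, and in S1 between them, at 2206 to 3306 CPM.

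Of 43 potassium channel genes compared, 0 were higher and 2 were lower in all 9 libraries, and 2 were higher and 6 lower without the library labelled cervical replicate 2. Over all genes the shares were 0.678% and 1.01% in 9 libraries and 1.52% and 1.97% in 8. *Kcnq5*, a channel of the slow M current, ran from 0 CPM in thoracic replicate 3 through a median of 93.9 to 221 CPM in cervical replicate 3, against 572 CPM in the rest, and *Kcna4* from 0.604 CPM in cervical replicate 3 through a median of 1.39 to 9.54 CPM in lumbar/sacral replicate 2, against 18.1 CPM. *Kcnd2*, of the transient A current, was at 305 to 824 CPM in 8 libraries, the lowest cluster mean of the 21, against 1414 CPM in S1 and 4353 CPM in S3. *Kcng4*, a modifying subunit, was at 35.1 to 62.9 CPM in the 8 libraries and 2.94 CPM in the ninth. *Kcnj14*, an inward rectifier, was at 8.80 to 23.6 CPM, and 1.96 CPM in the ninth. Of 9 sodium channel genes 1 was lower in all 9 libraries, *Scn3b*, from 1.31 CPM in lumbar/sacral replicate 1 through a median of 2.42 to 6.87 CPM in the library labelled cervical replicate 2 against 33.4 CPM. Of these 9 genes 0 were lower than in S1 or in S3 in all 8 libraries, beside 0.286% and 1.2% of all genes. *Scn1a* and *Scn8a*, the pore subunits carried by axons, were at medians of 449 and 356 CPM in S2, beside means of 504 and 361 CPM in S1.

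Of 21 calcium channel genes compared, 1 was lower than the rest in all 9 libraries (1.01% of all genes were), *Cacng4*, at 0 to 1.81 CPM in 8 libraries and 13.7 CPM in the library labelled cervical replicate 2, against 45.3 CPM in the rest. Without that library *Cacna1e*, the R-type pore subunit, and *Cacng3* joined it. *Cacna1e* was at 4.40 to 71.3 CPM in the 8 libraries and at 469 CPM in the ninth, so that the call rests on leaving it out. Against S3, 4 calcium channel genes were higher in S2 in all 8 libraries and 2 were lower, beside 1.95% and 1.2% of all genes. The lower ones were *Cacng3* and *Cacna2d1*, an auxiliary subunit at 127 to 498 CPM in S2 against 1576 CPM in S3. The higher ones were *Cacna1c* and *Cacna1d*, the L-type pore subunits, *Cacna1g*, a T-type subunit, and *Cacng5*. *Cacna1g* ran from 19.1 CPM in lumbar/sacral replicate 2 through a median of 69.5 to 90.7 CPM in cervical replicate 3 in S2, with means of 5.32 CPM in S1 and 2.49 CPM in S3.

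Receptors for fast transmitters passed the rule in both directions. Of 18 ionotropic glutamate receptor genes 0 were higher and 2 lower in all 9 libraries, and 1 was higher and 3 lower without the library labelled cervical replicate 2, beside 0.678%, 1.01%, 1.52% and 1.97% of all genes in that order. *Gria1*, an AMPA receptor subunit, ran from 61.6 CPM in thoracic replicate 3 through a median of 93.0 to 235 CPM in cervical replicate 3, against 717 CPM in the rest, and *Grik3*, a kainate receptor subunit, from 0.953 CPM in thoracic replicate 1 through a median of 7.86 to 19.1 CPM in lumbar/sacral replicate 2, against 72.3 CPM. Of the 18 genes 0 were lower than in S1 or in S3 in all 8 libraries, beside 0.286% and 1.2% of all genes. *Grin3b*, an NMDA receptor subunit known from MNs, was at 53.2 to 180.1 CPM in 8 libraries and 38.3 CPM in the ninth, beside means of 67.7 CPM in S1 and 90.2 CPM in S3. Of 16 genes of GABA-A and glycine receptors, 1 was higher and 1 lower in all 9 libraries, and 1 was higher and 3 lower without the library labelled cervical replicate 2. *Gabra5* ran from 45.3 CPM in lumbar/sacral replicate 2 through a median of 101 to 167 CPM in thoracic replicate 1, against 19.7 CPM in the rest, and *Gabra4* from 0 in 3 libraries through a median of 1.32 to 3.46 CPM in cervical replicate 1, against 13.2 CPM. *Glra1*, the adult glycine receptor subunit, was at a median of 523 CPM beside 548 CPM in S1 and 233 CPM in the rest.

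Of 10 monoamine receptor genes, 1 was higher than in S1 in all 8 libraries and 1 lower, and 1 was higher than in S3 and 3 lower. Of 11 peptide receptor genes, 1 was higher than in S1 and 0 lower, and 3 were higher than in S3 and 2 lower. Over all genes the shares were 1.19% and 0.286% against S1 and 1.95% and 1.2% against S3. *Adra1a*, an adrenergic receptor, ran from 60.8 CPM in the library labelled cervical replicate 2 through a median of 169.5 to 241 CPM in thoracic replicate 1, with means of 28.5 CPM in S1 and 10.4 CPM in S3, and it was the 1 monoamine receptor gene higher than in both. *Trhr*, the receptor for thyrotropin-releasing hormone, was at 21.5 to 90.8 CPM in 8 libraries and 25.5 CPM in the library labelled cervical replicate 2, against 1.55 and 1.34 CPM in S1 and S3, and was higher than in both in all 8 libraries. *Tacr1*, the substance P receptor, ran from 22.0 CPM in thoracic replicate 3 through a median of 82.3 to 128 CPM in cervical replicate 1 in S2 and was at 3.15 and 11.5 CPM in S1 and S3, higher than in S3 in all 8 libraries but not than in S1. It ranked ninth of the 21 clusters, behind interneuron cluster I6 and several visceral ones, and its difference from the rest was -0.15 ± 0.94. *Oprk1* and *Oprm1*, opioid receptors, were low. *Oprk1* was at most 1.39 CPM in a library of S2, and *Oprm1* was at 0 to 9.01 CPM in 8 libraries and 55.0 CPM in the ninth. *Chrm3*, a muscarinic receptor, was at 1.91 to 26.3 CPM in 8 libraries, 67.7 CPM in the ninth and 156 CPM in the rest. *Chrm2*, the muscarinic receptor placed under the C-boutons of MNs, ran from 453 CPM in lumbar/sacral replicate 2 through a median of 846 to 936 CPM in thoracic replicate 1, against 530.4 and 557 CPM in S1 and S3. Of the 6 C-bouton genes 0 passed the rule against the rest, where 0.678% of all genes were higher and 1.01% lower. In so few genes a count of 0 lies near those shares. Against S3, 1 of the 6 was higher in all 8 libraries, beside 1.95% of all genes.

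Among 28 genes of synaptic vesicles and release, *Sv2b* was higher and *Cplx2* and *Stx1a* were lower in all 9 libraries, beside 0.678% and 1.01% of all genes. The members of the *Sv2* family were not alike. *Sv2a* was at 16.3 to 42.9 CPM in 8 libraries and 74.6 CPM in the library labelled cervical replicate 2, the lowest cluster mean of the 21, against 66.2 CPM in S1 and 70.5 CPM in S3. *Sv2c* ran from 375 CPM in the library labelled thoracic replicate 2 through a median of 506 to 679 CPM in thoracic replicate 1, against 261 CPM in the rest. *Stx1a*, a syntaxin of the fusion machinery, ran from 0 CPM in thoracic replicate 3 through a median of 2.84 to 7.85 CPM in the library labelled cervical replicate 2, against 50.9 CPM. Of the 28 genes 0 were lower than in S1 or in S3 in all 8 libraries, beside 0.286% and 1.2% of all genes. *Syt2*, a calcium sensor of fast release, and *Agrn*, which encodes the agrin that gathers receptors at the muscle, had their highest means in S2, with medians of 404 and 139 CPM and differences from the rest of 0.86 ± 0.31 and 0.42 ± 0.52. Of 19 splicing factor genes, 1 was lower in all 9 libraries (1.01% of all genes were), *Celf6*, at -1.87 ± 0.42. Against S1 and against S3, 0 of the 19 were lower in all 8 libraries. *Celf4* was at 54.3 to 179 CPM in 8 libraries, the lowest cluster mean of the 21, and at 464 CPM in the ninth.

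Genes of adhesion and guidance were found in both directions, and the counts below stand beside 0.678% higher and 1.01% lower of all genes in 9 libraries and 1.52% and 1.97% in 8. Of 22 cadherin genes, *Cdh20* was higher in all 9 libraries, from 184 CPM in the library labelled cervical replicate 2 through a median of 345 to 414 CPM in thoracic replicate 1, and *Cdh11* was lower, at 3.81 to 26.0 CPM in 8 libraries and 68.7 CPM in the library labelled cervical replicate 2. *Cdh20* was at 398 CPM in S1, so it was shared with that cluster, while *Cdh11* was at 18.8 CPM in S1 and 273 CPM in S3. Of 24 genes of semaphorins, plexins and neuropilins, *Sema3c* was lower in all 9 libraries, at -2.79 ± 0.85. *Nrp1* ran from 281 CPM in the library labelled cervical replicate 2 through a median of 649 to 770.1 CPM in thoracic replicate 3 in S2, where it had the highest cluster mean, against 117 and 99.0 CPM in S1 and S3. *Nrp2*, a marker of gamma MNs, was at a median of 36.8 CPM in S2, 3.79 CPM in S1 and 442 CPM in S3. *Nrp1* was thus higher and *Nrp2* lower in S2 than in S3. *Lifr*, a receptor for leukemia inhibitory factor, was at 97.8 to 231 CPM in 8 libraries and 48.1 CPM in the ninth, and was the 1 gene of 12 trophic factor receptors higher in those 8. *Acan*, the core protein of perineuronal nets, was at 8.80 to 23.8 CPM in 8 libraries, 3.93 CPM in the ninth and 1.59 CPM in the rest. *Nefh*, the heavy neurofilament, had its highest mean in S2 with a median of 93.0 CPM, a difference of 1.37 ± 0.57, and passed the rule in neither direction. Of 25 genes of motor neuron disease 0 passed the rule in either direction, and of 61 respiratory chain genes also 0, with a median difference of -0.10, or -0.03 without the library labelled cervical replicate 2.

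S2 was also set beside the other skeletal clusters, gene by gene, without a test. Without the library labelled cervical replicate 2, 133 genes were higher than in S1 in all 8 libraries (1.19% of 11208) and 32 were lower (0.286%). Against S3, 218 were higher (1.95%) and 135 lower (1.2%). *Chodl*, a marker of fast alpha MNs, was among those higher than in both, and ran from 21.2 CPM in the library labelled thoracic replicate 2 through a median of 28.6 to 102 CPM in lumbar/sacral replicate 3, against 0.806 and 1.41 CPM. *Rora*, a nuclear receptor gene, lay between the others at a median of 5942 CPM, with 12045 CPM in S1 and 890.4 CPM in S3. *Prkcd*, a kinase gene listed for slow alpha MNs, was at 49.0 to 132 CPM in 8 libraries, at 135 CPM in S1 and at 4.33 CPM in S3. *Plekhg1*, a gamma marker, was lower than in S3 in all 8 libraries, at a median of 18.01 CPM against 530.0 CPM. *Htr1d* was lower than in both. Markers of cells other than neurons were present at low levels. The 6 oligodendrocyte genes summed to 55.0 to 151 CPM in S2, to 70.8 to 134 CPM in S1 and to 32.5 to 63.6 CPM in S3, with 0 of them at 0 in every library. *Mbp* made up most of this in S2, at a median of 81.6 CPM, and was higher than in S3 in all 8 libraries. The 5 microglia genes summed to 19.6 to 194 CPM in S2, highest in thoracic replicate 3, the 6 astrocyte genes to 17.7 to 39.6 CPM and the 4 vascular genes to 1.96 to 22.0 CPM. Their part in the profile was not tested.

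The nuclei of S2 were not alike among themselves. *Kcnq5*, which is listed among genes of fast alpha MNs, was above 0 in 256 of the 1214 S2 nuclei outside the library labelled cervical replicate 2 (21.1%). The share ran from 0% of 26 nuclei in thoracic replicate 3 and 8.86% in the library labelled thoracic replicate 2 to 47.2% in cervical replicate 3. For comparison it was above 0 in 15.2% of S1 and 36.8% of S3 nuclei (means over the same 8 libraries). In the 7 libraries that had such nuclei, *Prkcb*, a protein kinase C gene, was above 0 in 75.3% ± 15.9 of the nuclei with Kcnq5 and 27.8% ± 7.99 of those without (mean ± SD of library shares). *Cacna1e* was above 0 in 51.7% ± 22.2 of the nuclei with Kcnq5 and 10.3% ± 4.46 of those without. In every one of the 7 libraries the share was higher beside *Kcnq5*, by 27.0 to 67.4 percentage points for *Prkcb* and by 14.1 to 78.8 for *Cacna1e*. *Adarb2*, a gene of the RNA editing enzyme family, was above 0 in 82.5% ± 12.4 of the nuclei with Kcnq5 and 37.7% ± 8.06 of those without. The opposite held for *Kcnn3*, a calcium-activated potassium channel that is listed for slow alpha MNs, which was above 0 in 20.9% ± 10.6 of the nuclei with Kcnq5 and 59.1% ± 9.43 of those without. *Lancl3* was above 0 in 19.8% ± 12.7 of the nuclei with Kcnq5 and 63.9% ± 12.02 of those without, and *Actn2*, an actinin gene, in 20.7% ± 9.79 of the nuclei with Kcnq5 and 61.5% ± 17.6 of those without. Of the other genes listed for fast and slow alpha MNs, *Chodl* was higher beside *Kcnq5* in all 7 libraries, by 3.48 to 52.3 points, and *Prkcd* and *Esrrb* were lower in all 7, with differences of -21.6 to -65.3 and -12.0 to -27.4 points. *Calca*, *Mmp9* and *Sv2a* had no common direction.

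Both channel genes were above 0 in 59 of the 1214 nuclei, *Kcnq5* alone in 197, *Kcnn3* alone in 524 and neither in 434. The nuclei with *Kcnq5* had a median of 3143.5 genes above 0, against 3344.5 in those without, and the median difference over 8907 genes was -4.89 points. Of the 4 markers of S2, *Sv2b* was above 0 in 84.02% ± 16.6 of the nuclei with Kcnq5 and 83.8% ± 16.0 of those without, with no common direction over the 7 libraries. *Mrvi1* was above 0 in 37.1% ± 17.4 of the nuclei with Kcnq5 and 48.2% ± 17.6 of those without, lower in all 7. *Rbfox3* was above 0 in 86.8% ± 14.8 of the nuclei with Kcnq5 and 68.6% ± 17.3 of those without, higher in all 7. *Stk32a* was above 0 in 73.3% ± 27.9 of the nuclei with Kcnq5 and 84.7% ± 17.2 of those without, and in 28.6% of the nuclei with *Kcnq5* of its lowest library. *Tns1* was above 0 in 81.9% ± 19.7 of the nuclei with Kcnq5 and 93.8% ± 2.97 of those without. In its lowest library it was above 0 in 43.5% of the nuclei with Kcnq5. *Prph*, another skeletal MN gene, was above 0 in 56.45% and 78.52%, with differences of -3.09 to -48.8 points. *Isl1* was above 0 in 22.15% and 41.8%, with differences of -3.40 to -32.9 points. *Prph*, *Isl1* and *Spp1* were lower beside *Kcnq5* in all 7 libraries, and *Chodl* was higher. *Tns1*, *Mnx1* and *Glis3* had no common direction. The cause of these differences was not tested. *Kcnq5* and the genes named beside it were picked after their values were seen and from nuclei of 1 cluster, so these shares are a description with no test. In the library labelled cervical replicate 2 *Kcnq5* was above 0 in 94.4% of the S2 nuclei.

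**Figure D3:**
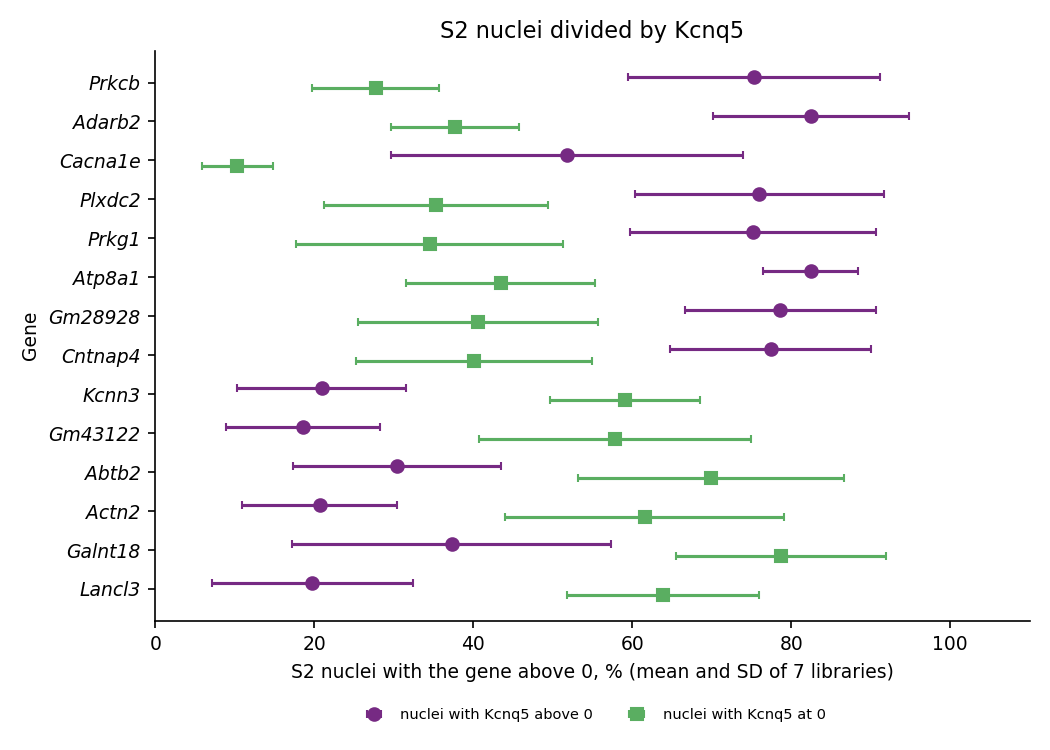
Share of S2 nuclei in which a gene is above 0, in % (horizontal axis), for the 14 genes that differed most between nuclei with and without Kcnq5 (vertical axis); purple circles are nuclei with Kcnq5 above 0, green squares nuclei with Kcnq5 at 0, and whiskers are the SD of 7 libraries. Prkcb was at 75.3% beside Kcnq5 and 27.8% without it, and Kcnn3 at 20.9% and 59.1%.

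Position along the cord was tested with limma on the library sums of S2, with the libraries as replicates, so the p-values measure the spread between these 9 libraries. *Hoxd11*, a gene of the lower cord, was at 36.8, 28.6 and 14.2 CPM in S2 of lumbar/sacral replicates 1, 2 and 3 and at 0 in the 6 other libraries, so the groups did not overlap. Its log2 difference was 2.58 (SE 0.325), a size that depends on the pseudocount since 6 libraries are at 0, and limma gave it an adjusted p of 0.0571. With the pool of mice as a block the adjusted p was 0.0453, and without both libraries of doubtful label it was 0.910. Over the alternatives in which *Hoxd11* was tested it ran from 0.0453 to 0.910. *Hoxd11* passed the filter on low values only through the 3 lumbar/sacral libraries, where it is high. Its p-value is thus no separate support for a difference. With any of these libraries left out it was not tested. Of 10387 genes, 0 were called at an adjusted p under 0.05 between lumbar/sacral and the other libraries (0% in each direction), while 245 had an unadjusted p under 0.05. *Hoxa9* was at 25.0, 19.1 and 12.8 CPM in lumbar/sacral replicates 1 to 3, at 9.53 and 13.2 CPM in thoracic replicates 1 and 3 and at 0 in cervical replicates 1 and 3. It was at 4.91 CPM in the library labelled cervical replicate 2 and 1.32 CPM in the library labelled thoracic replicate 2, between the levels of the other cervical and thoracic libraries. *Hoxc5* in S2 was at 17.7 and 15.1 CPM in cervical replicates 1 and 3, at 103 and 92.4 CPM in thoracic replicates 1 and 3, and at 102 and 10.6 CPM in the libraries labelled cervical and thoracic replicate 2, each as in the other region.

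**Figure D4:**
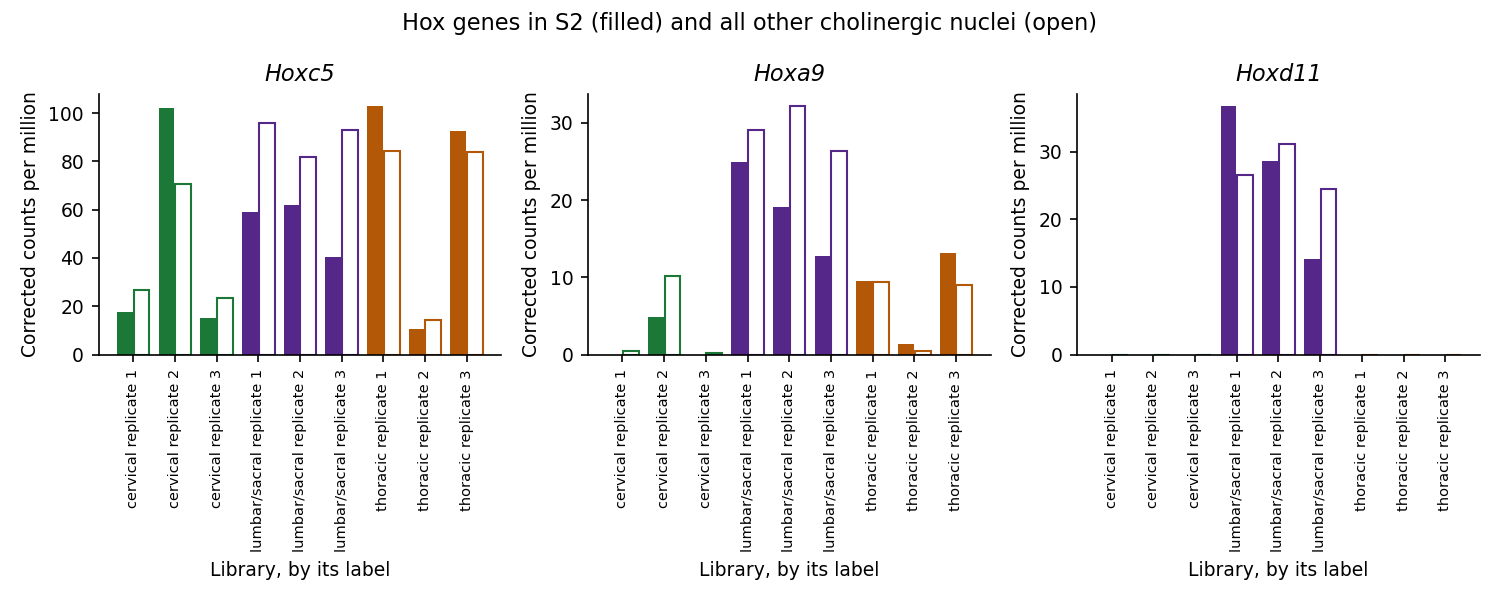
Level of Hoxc5, Hoxa9 and Hoxd11 in CPM (vertical axes, from 0) in each of the 9 libraries by label (horizontal axes), with filled bars for S2 and open bars for all other cholinergic nuclei. Hoxd11 is above 0 in the 3 lumbar/sacral libraries alone, and Hoxc5 in the library labelled cervical replicate 2 is as high as in thoracic replicates 1 and 3.

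Between cervical and thoracic libraries as labelled, 0 of 10387 genes were called in S2 (0% in each direction) and 882 had an unadjusted p under 0.05. With the pool of mice as a block 1 gene was called. This was *Negr1*, which encodes a neuronal adhesion molecule, with a log2 difference of 1.96 and an adjusted p of 0.0280 from limma, against 0.542 without the block. Its level was 361 and 470 CPM in cervical replicates 1 and 3, 136 and 79.2 CPM in thoracic replicates 1 and 3, and 771 and 188 CPM in the libraries labelled cervical and thoracic replicate 2, whose labels *Hoxc5* contradicts. Whether the change from lumbar/sacral to the other libraries differs between S2 and the sum of S1 and S3 was tested on the difference within each library. Of 11077 genes 0 were called by limma (0% in each direction), with 250 at an unadjusted p under 0.05. Without the library labelled cervical replicate 2, 2 genes were called, both at an adjusted p of 0.0374 from limma. With the library labelled thoracic replicate 2 left out as well, 0 were called. *Col24a1*, a collagen gene, had a difference of -2.55, with S2 levels of 22.3, 2.39 and 40.4 CPM in lumbar/sacral replicates 1 to 3 and 82.1 to 145 CPM in the 5 other libraries of that fit. It was at 17.7 CPM in the library labelled cervical replicate 2. *Shisa9*, which encodes a protein associated with AMPA receptors, had a difference of 1.80. Levels in S1 and S3, which also enter these differences, are not given, so the S2 levels alone do not show which clusters changed.

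The share of S2 was not shown to differ along the cord. Among skeletal MN nuclei it was 40.3, 42.8 and 27.9% in cervical replicates 1 to 3, 34.6, 11.5 and 11.4% in thoracic replicates 1 to 3 and 19.6, 9.63 and 33.1% in lumbar/sacral replicates 1 to 3. The means were 37.0% ± 7.97 (SD, n = 3 libraries), 19.2% ± 13.4 and 20.8% ± 11.8, and the libraries of the regions overlapped. An exact permutation test over 1680 assignments of libraries to regions gave p = 0.221, and 0.333 when regions were permuted within pools (exact). These means take the labels of cervical and thoracic replicate 2 as given, which *Hoxc5* and *Hoxa9* contradict. Without both libraries the means were 34.1, 23.0 and 20.8%, with p = 0.514 in the exact permutation test. Among all cholinergic nuclei the share was 11.7% ± 2.24, 4.04% ± 2.24 and 7.67% ± 5.31 in the same order, with p = 0.121 in the exact test. Here each library labelled cervical was above each one labelled thoracic. This order rests on the labels in doubt, with 9.50% in the library labelled cervical replicate 2 and 4.53% in that labelled thoracic replicate 2. Lumbar/sacral libraries had a share among skeletal nuclei 7.32 points below that of the others, with p = 0.440 in the exact two-sided permutation test over 84 groupings. A share depends on which nuclei were kept by the sort as well as on how many cells a cord holds, which cannot be told apart here.

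**Figure D5:**
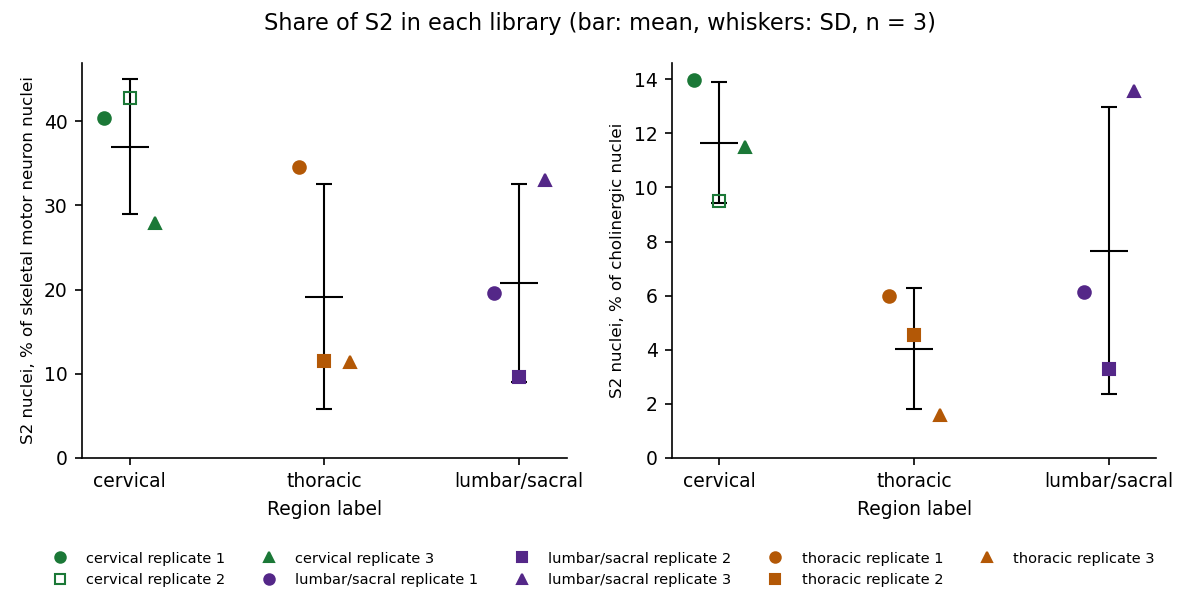
Share of S2 in % of skeletal MN nuclei (left) and of cholinergic nuclei (right), vertical axes from 0, by region label (horizontal axes); symbols are libraries, horizontal bars are means and whiskers are the SD of 3 libraries. Means among skeletal nuclei are 37.0, 19.2 and 20.8%, and the libraries of the 3 regions overlap.

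Between the male and the female pool, 3 of 9730 genes were called in S2 by limma with region as a term, 2 higher in males (0.0206%) and 1 lower (0.0103%), and 835 had an unadjusted p under 0.05. *Xist*, the X-linked RNA that silences an X chromosome, had a log2 difference of -7.11 and limma gave it an SE of 0.313 and an adjusted p of 3.01e-06. It was at 0, 1.32 and 0 CPM in the libraries of the male pool labelled cervical, thoracic and lumbar/sacral and 1063, 598 and 636 CPM in those of the female pool. *Uty* and *Eif2s3y*, of the Y chromosome, had log2 differences of 4.65 (SE 0.428) and 4.53 (SE 0.437), with adjusted p-values from limma of 0.00246 and 0.00258. Each of these 3 genes passed the filter on low values only through the libraries of the sex in which it is high. Their p-values are thus no support beyond the levels themselves. The count rests on single libraries and settings. It was 150 without the library labelled cervical replicate 2, 201 without cervical replicate 3, 237 without the library labelled thoracic replicate 2, 235 without thoracic replicate 3 and 1 without lumbar/sacral replicate 2, and 74 without a filter on low values. With a library of 1 sex left out, genes present in that sex alone passed the filter in too few sums and were not tested. The 1 without lumbar/sacral replicate 2 thus leaves *Uty* and *Eif2s3y* untested. Scaling by the median of ratios gave 3 higher and 3 lower genes. Labels of sex were thus borne out by these genes in each library, also in those whose region is in doubt. The share of S2 among skeletal nuclei was 21.3% ± 18.6 in the male and 24.1% ± 11.3 in the female pool, with p = 1 in the exact permutation test, for which 0.25 is the smallest p.

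The number of genes above 0 per nucleus was not shown to differ between the skeletal clusters over all 9 libraries. Medians per library averaged 3585 ± 541 genes in S2 (SD, n = 9 libraries), 3545 ± 803 in S1 and 3439 ± 765 in S3. S2 was higher than S1 in 7 of 9 libraries, by 40.3 genes on average (p = 0.910, exact two-sided sign-flip test), and higher than S3 in 7 of 9, by 146 genes (p = 0.508). Adjusted over both comparisons the p was 0.910 for each. In the library labelled cervical replicate 2 S2 lay 1430 genes below S1 and 1346 below S3. V10 was also low there, at a median of 3930.5 genes beside 3791 in S2. Without this library the differences were 224 genes (p = 0.0234, exact) and 332 genes (p = 0.0156, exact). The library was left out after its values were seen, and it lay farthest in the opposite direction. The clusters were also drawn from the values of the same nuclei. The p-values without this library, here and below, are therefore a description and no support for a difference. After nuclei were thinned to 4000 corrected counts, which left out 16 nuclei of S2, 32 of S1 and 35 of S3, they were 40.8 and 75.2 genes with that library (p = 0.410 and 0.129, exact) and 80.3 and 115 without it (p = 0.0313 and 0.0156, exact).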

How the data were processed

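Nuclei of mouse spinal cord were sorted for GFP and DNA dye and sequenced as droplet libraries, 9 in all. According to the methods and labels, the authors used Cell Ranger 3.1.0 with an mm10 reference that keeps introns, removed outlying nuclei, corrected counts with SCTransform in Seurat on each region apart, clustered the nuclei and ranked markers with DESeq2. The deposited values are model-corrected counts rounded to whole numbers, a score and not raw counts, for 21457 features in 16042 cholinergic nuclei, so tests made for raw counts were not used and true depth is not known. Members and cell types are those of the deposited labels. The members and gene lists were chosen with earlier results of these data known. No doublet caller was run.

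Values were summed over the nuclei of a cluster and library where it had at least 10 nuclei, scaled to 1000000 (CPM) and taken as log2(CPM + 5), so fold changes of low genes are understated. Genes at 10 CPM or more in at least 3 sums were kept. S2 was described against the rest by a log2 difference of at least 1 in every library. Named genes were list members, the 15 with the largest difference among genes higher in every library, at 20 CPM or more and highest in S2, and the 10 with the largest negative difference among genes lower in every library. Regions and sexes were compared with limma 3.58.1 with trend in R 4.3.3, with Benjamini-Hochberg adjustment and a threshold of 0.05, on all genes kept. Shares and genes per nucleus were compared with exact permutation and sign-flip tests in Python 3.11.15 with numpy 2.4.6, pandas 2.3.3 and scipy 1.17.1. The code was tested on simulated data.

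The main fits had no term for the pool of mice. The 3 libraries of a replicate number come from the same mice, so the numbers pair the samples. Correlations of the deviations of same-numbered libraries from their region means ran from -0.0835 to 0.700. Those of differently numbered libraries of different regions ran from -0.517 to 0.259. Alternatives were another scaling, pseudocounts of 1 and 20, other filters on low values, the pool of mice as a block, leaving out each library, equal weight of clusters, and thinning of nuclei. Leaving out the library labelled cervical replicate 2, or it and the library labelled thoracic replicate 2, and a sex fit without region were chosen after seeing the data.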

Additional observations from a re-analysis of the deposited data

Results flagged for a closer look

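For 42 results the library that lay farthest from the other 8 was looked for by Dixon's gap test, which chance passes in about 1 of 20 groups. It picked out 13 results, and in all 13 the library was the one labelled cervical replicate 2. In S2 of this library *Tns1* was at 80.5 CPM where the next lowest library had 311, and *Chat* at 144 CPM where the next had 232. Genes that are low in S2 were high there. *Nos1* was at 52.0 CPM with 20.5 in the next highest library, *Stac* at 169.8 with 31.0, *Pard3b* at 67.7 with 23.6 and *Zfp804b* at 316 with 115. *Nwd2* was at 282 CPM with 68.9 in the next, *Trpc4* at 23.6 with 9.53 and *Ankfn1* at 31.4 with 10.5. The 5 visceral MN markers summed to 269 CPM, with 81.1 in the next highest library, and the 4 interneuron markers to 188 CPM, with 66.8 in the next. The median number of genes per nucleus was -1430 relative to S1, next to -59 in the next lowest library, and -1346 relative to S3, next to -28.5. The cause was not tested.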

How the results depend on the processing

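Of the alternative values, the 24 for *Xist*, *Uty* and *Eif2s3y* and 84 of the 105 others were counted as unchanged. This means the same direction and side of the threshold or, for counts, a value within 1.5 times. The size of a difference was not judged. Settings in which *Xist*, *Uty* or *Eif2s3y* did not pass the filter gave no value for that gene. With the replicate block, 1 gene was called between lumbar/sacral and the other libraries (*Hoxd11*) and 1 between cervical and thoracic (*Negr1*), and the block changed no other call. For the difference of region effects, leaving out 1 library gave 0 to 2 genes, 2 only without the library labelled cervical replicate 2. The count between sexes was 3, and became 6 with scaling by the median of ratios, 5 with a pseudocount of 20, 74 without a filter, 0 with at least 10 summed values in every sum, and 1 to 237 when 1 library was left out. The 0 says nothing of *Xist*, *Uty* and *Eif2s3y*, which are at or near 0 in 1 sex and cannot pass that filter. The count was 150 without the library labelled cervical replicate 2, 201 without cervical replicate 3, 237 without the library labelled thoracic replicate 2 and 235 without thoracic replicate 3, so it rests on single libraries. It was 1 without lumbar/sacral replicate 2, where *Uty* and *Eif2s3y* failed the filter and were not tested. Genes higher in S2 numbered 32 with a pseudocount of 20, 185 with equal weight of clusters and 76 to 170 when 1 library was left out. Genes lower numbered 175 with a pseudocount of 1, 39 with one of 20, 39 with equal weight and 113 to 221 when 1 library was left out, the highest of both without the library labelled cervical replicate 2. Leaving out that library also gave 224 more genes per nucleus than S1 and 332 more than S3. Median of ratios scaling moved the median of all genes from -0.27 to -0.03 between cervical and thoracic, from 0.13 to 0.02 for lumbar/sacral and from -0.13 to 0.03 between sexes. The cause of these changes was not tested. Sums of few nuclei, 26 in thoracic replicate 3, limit what low genes can show.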

Other observations

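Genes other than *Kcnq5* were also above 0 in part of the 1214 S2 nuclei outside the library labelled cervical replicate 2. *Grm5*, a glutamate receptor gene, was above 0 in 25.4% of them, *Cdh8*, a cadherin gene, in 24.3%, and *Mecom*, a transcription factor gene, in 27.7%. *Erbb4*, a neuregulin receptor gene, was above 0 in 22.5%, *Cpne4*, which encodes a copine, in 20.7% and *Glis3* in 50%. The number of genes whose share differed by over 20 percentage points with 1 sign in all libraries compared was 35 higher and 111 lower for *Kcnq5*, 24 and 34 for *Cdh8*, 21 and 9 for *Grm5*, 10 and 8 for *Cpne4*, 8 and 5 for *Glis3*, 2 and 2 for *Erbb4*, and 1 and 3 for *Mecom*. These genes were chosen after their values were seen, so the counts are a description.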
